A study of Mus musculus with 62 samples.

Results

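The Quad-unmarked ATAC peaks are sites of accessible chromatin in mouse quadriceps (Quad) that carried neither of the histone marks profiled in the same muscle. They were chosen by overlap: a peak of the deposited Quad ATAC list was taken when it shared no base with any peak of the deposited Quad H3K27ac list or the Quad H3K4me2 list. The rule selected 11666 of 44911 Quad ATAC peaks, which is 26.0% (Wilson 95% interval 25.6 to 26.4). Of the remaining peaks, 20235 (45.1%) carried both marks, 7423 (16.5%) H3K27ac only and 5587 (12.4%) H3K4me2 only. Because the Quad mark lists defined the set, the absence of these marks is the definition and no finding.

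ATAC-seq reads out DNA that a transposase can enter, which in tissue is mostly the nucleosome-free core of promoters, enhancers and insulators. H3K4me2 lies on the nucleosomes that flank promoters and enhancers, and H3K27ac is added where these elements are active. CTCF is a zinc-finger protein that binds insulators and the anchors of chromatin loops, and many of its sites are accessible while carrying little acetylation. MEF2 factors and the MyoD family bind muscle enhancers, AP-1 factors respond to growth and stress signals, and MED1 is a subunit of the Mediator complex that concentrates at active enhancers.

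The study profiled 4 muscles of sedentary wild-type male C57BL/6 mice (C57BL/6J per the study's methods), which span glycolytic to oxidative types: Quad, the extensor digitorum longus (EDL), the diaphragm (Dia) and the soleus (Sol). It also profiled Quad of sedentary (Sed) and wheel-running (Ex) wild-type mice, and Quad of sedentary wild-type mice (Wt) and of sedentary mice carrying a Pgc1a transgene (mTg), which per the study is driven by the muscle creatine kinase promoter, active in muscle fibers. For the mark libraries a sample was, per the study, a single quadriceps of 1 animal or the pooled EDL, Sol or Dia muscles of several. Each mark list rested on 2 libraries, each MED1 or NFAT list on 1, and the Quad ATAC list on 3 libraries of sedentary wild-type Quad pooled into 1 list, so ATAC values have no replicate spread. All samples were whole muscle, so a signal from few cells and a weak signal in many cells cannot be told apart. The pooled ATAC data held 79012797 tags, and 1 unit of the ATAC signal (tags of a peak scaled to a total of 10000000) stands for 7.90 tags, so the median Quad-unmarked peak rested on 36.5 tags and the median of all peaks on 56.5. Mark libraries held 6405517 to 24195147 tags. Intervals on shares cover counting error only, and neighbouring peaks are not independent.

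Sequences of 8 Quad-unmarked peaks are given here because the words CTCF, AP-1 and MEF2 and the promoter class carry the contrasts described below. They were among the peaks with the highest signal that held each word, and the Quad-unmarked promoter with the highest signal. Each is the whole 195-base interval on the plus strand of GRCm38 (mm10), and capitals mark the word. The positions are, in order, chr4:140714017-140714211, chr1:135753011-135753205, chr2:151494086-151494280, chr12:15766123-15766317, chr13:3373119-3373313, chr13:55850734-55850928, chr5:25096565-25096759 and chr17:57031952-57032146.
CTCF, Rcc2 intron: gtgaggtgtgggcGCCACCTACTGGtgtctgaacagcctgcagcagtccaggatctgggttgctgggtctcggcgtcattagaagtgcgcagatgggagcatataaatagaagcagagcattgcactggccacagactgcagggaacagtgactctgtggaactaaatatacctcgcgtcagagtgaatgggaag
CTCF, upstream of Phlda3: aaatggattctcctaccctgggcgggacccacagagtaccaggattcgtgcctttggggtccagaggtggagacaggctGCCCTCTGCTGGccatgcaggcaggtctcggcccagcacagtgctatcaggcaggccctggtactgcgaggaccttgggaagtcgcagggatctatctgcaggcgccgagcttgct
CTCF, Nsfl1c promoter: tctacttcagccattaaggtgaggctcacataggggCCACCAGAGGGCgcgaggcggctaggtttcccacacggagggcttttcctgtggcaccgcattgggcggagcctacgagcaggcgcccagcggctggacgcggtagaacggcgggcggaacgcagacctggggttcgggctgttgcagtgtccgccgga
AP-1, nearest Mir6387: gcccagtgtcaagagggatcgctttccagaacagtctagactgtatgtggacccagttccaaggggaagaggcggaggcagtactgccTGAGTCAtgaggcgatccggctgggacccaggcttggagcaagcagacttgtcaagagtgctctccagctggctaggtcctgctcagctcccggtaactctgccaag
AP-1, nearest 2810429I04Rik: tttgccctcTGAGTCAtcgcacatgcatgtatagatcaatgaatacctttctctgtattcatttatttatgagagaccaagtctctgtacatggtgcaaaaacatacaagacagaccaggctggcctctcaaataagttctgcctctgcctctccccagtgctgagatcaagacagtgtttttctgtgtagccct
MEF2, upstream of Pitx1: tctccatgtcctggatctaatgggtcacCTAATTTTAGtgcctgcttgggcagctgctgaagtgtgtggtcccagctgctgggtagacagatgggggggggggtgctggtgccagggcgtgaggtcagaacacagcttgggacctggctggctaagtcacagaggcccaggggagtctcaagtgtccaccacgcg
MEF2, Prkag2 intron: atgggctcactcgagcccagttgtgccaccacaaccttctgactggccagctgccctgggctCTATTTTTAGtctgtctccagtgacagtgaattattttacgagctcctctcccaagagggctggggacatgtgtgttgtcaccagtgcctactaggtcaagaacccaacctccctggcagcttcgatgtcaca
no capitals, Khsrp promoter: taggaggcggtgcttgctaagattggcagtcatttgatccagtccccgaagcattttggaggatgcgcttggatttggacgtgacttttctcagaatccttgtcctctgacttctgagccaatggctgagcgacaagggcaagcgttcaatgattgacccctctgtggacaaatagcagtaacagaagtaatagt
Counted from the middle of the interval, the word was centred at -12.5 bp upstream of Phlda3 and at -78.5 bp in the Rcc2 intron. Both of these peaks were next to a Quad mark peak without touching it, at gaps of 59 and 142 bp. The AP-1 peak near Mir6387 shared a base with a mark peak in 13 of the 14 lists outside the Quad pair, whereas the one near 2810429I04Rik did so in 0. The MEF2 peak in the intron of Prkag2, a regulatory subunit of AMP-activated protein kinase, was in 0 of 14 lists, and that upstream of Pitx1, a homeobox factor of the hindlimb, was in 4.

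Quad-unmarked peaks were the weakest class of accessible sites. Their median signal was 4.62 (quartiles 3.80 and 6.14), beside 6.33 for peaks with H3K4me2 only, 7.02 with H3K27ac only, 10.1 with both marks and 7.15 over all peaks. With all peaks ordered by signal and cut into 10 steps of equal number, 65.0% of the lowest step were Quad-unmarked (63.6 to 66.4) and 2.00% of the highest (1.63 to 2.46). The share was lower at every next step between these ends, as the plot of signal by class shows. A signal over 20 was reached by 70 Quad-unmarked peaks (0.600%), against 7.76% of all peaks. Density over the surrounding 10000 bp, for which the peak caller required 4-fold, was also lowest in this class, with a median of 5.23-fold beside 6.25-fold for H3K27ac only, 6.34-fold for H3K4me2 only and 7.43-fold for both marks.

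**Figure D1:**
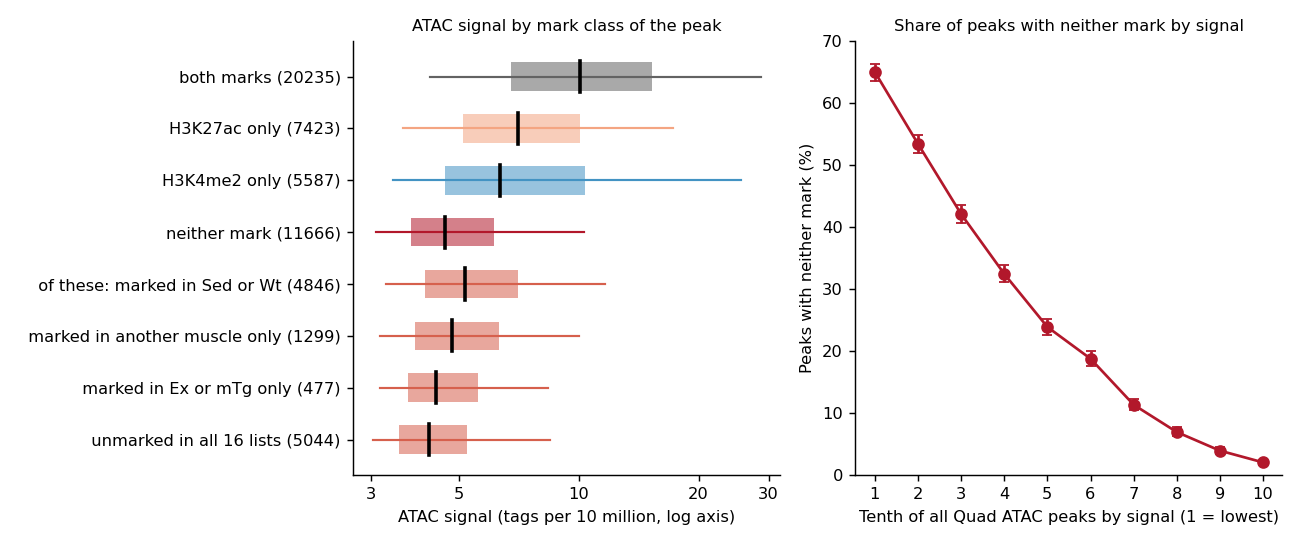
Left, ATAC signal (tags per 10000000, log axis) for each mark class of Quad ATAC peaks and for 4 subsets of the peaks with neither mark, with the 5th to 95th percentile as lines, quartiles as boxes, medians as black bars and the number of peaks in brackets. Right, the share of peaks with neither mark in each of 10 steps of all peaks by signal, with Wilson 95% intervals, which runs from 65.0% in the lowest to 2.00% in the highest step.

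Few of these sites were at promoters. Within 1000 bp upstream to 100 bp downstream of a RefSeq start site lay 178 Quad-unmarked peaks, 1.53% (1.32 to 1.76), compared with 23.8% of all Quad ATAC peaks. Introns held 5461 (46.8%) and intergenic DNA 5590 (47.9%), against 38.8% and 33.4% of all peaks. The remaining 437 (3.75%) lay in exons, where 213 were in coding sequence, 162 in 3′ UTRs, 12 in 5′ UTRs and 50 in non-coding transcripts. The median distance to the nearest start site was 29260.5 bp, beside 14610 bp for all peaks, and 16.7% were farther than 100000 bp, against 10.3%. Peaks with H3K27ac only had almost the same layout, with 3.10% at promoters and a median distance of 29440 bp, whereas the median was 7290 bp for H3K4me2 only and 2381 bp for both marks. Quad-unmarked intervals were also poorer in CpG dinucleotides, with a median of 2 per interval against 4 over all peaks, and 13.2% had 0 CpG against 7.49%. Peaks with H3K27ac only were alike here too, with a median of 2 and 12.1% with 0.

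**Figure D2:**
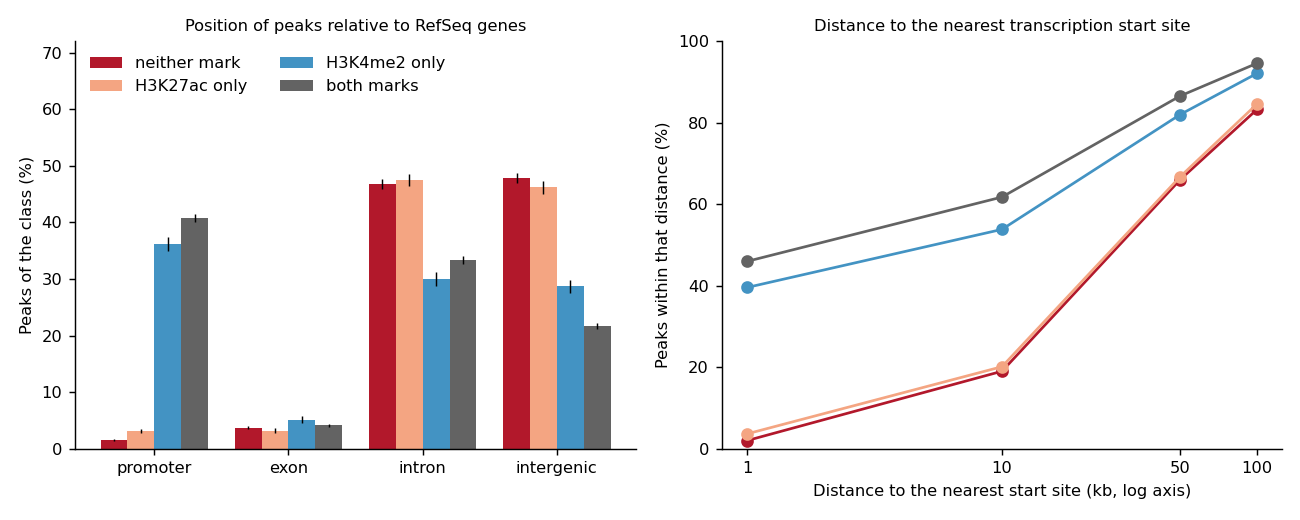
Left, share of peaks of each mark class in promoters, exons, introns and intergenic DNA, with Wilson 95% intervals as bars. Right, share of peaks of each class within 1, 10, 50 and 100 kb (log axis) of the nearest start site, where the lines for neither mark and for H3K27ac only lie close together and below those of H3K4me2 only and of both marks.

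The gap between a Quad-unmarked peak and the nearest Quad mark peak varied widely. It has no background here, since the other ATAC peaks touch a mark peak by definition. The median gap was 8557.5 bp (quartiles 2810 and 20682), with 542 peaks (4.65%) more than 100000 bp away. A gap of at most 100 bp was seen for 803 peaks (6.88%), which had a higher median signal of 5.82 and of which 4.48% were promoters. Quad mark peaks within 1000 bp on both sides enclosed 161 peaks (1.38%) with a median signal of 7.02, and 1767 more (15.1%) had such a neighbour on 1 side, with a median of 5.51. At the edge of the rule, 10 peaks lay 1 bp outside a mark peak (median signal 7.625), and 7 marked peaks shared a single base with one (median 5.25). Examples just inside were the peaks nearest Stk3, a Hippo pathway kinase (signal 28.1), and Plec, which encodes the cytoskeletal linker plectin (22.2). Just outside were peaks nearest Plpp3 (6.64) and Lsmem1 (5.25).

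Absence from the Quad lists did not mean absence from every list of marked regions. A peak of 1 or more of the 14 other mark lists covered 6622 Quad-unmarked peaks (56.8%, 55.9 to 57.7), and 5044 (43.2%) shared no base with a mark peak in any of the 16 lists. That last group made up 11.2% of all Quad ATAC peaks and had the lowest median signal, 4.21. In the other untreated wild-type Quad sets, Sed or Wt, 4846 Quad-unmarked peaks (41.5%) were marked, with 21.9% in Sed, 34.1% in Wt and 14.5% in both. Another 1299 (11.1%) were marked in EDL, Sol or Dia without Sed or Wt, and 477 (4.09%) in Ex or mTg alone. Marking elsewhere moved with signal and with the nearness of a Quad mark. Among the 1167 Quad-unmarked peaks with the highest signal 62.4% were marked in Sed or Wt and 23.7% in no list, whereas among the 1166 with the lowest 22.6% and 65.0% were. Of those within 100 bp of a Quad mark peak 74.7% were marked in Sed or Wt, and of those more than 100000 bp away 16.8% were, with 72.3% in no list. As a background, 95.4% of the Quad ATAC peaks with a Quad mark were also marked in Sed or Wt and 95.7% in EDL, Sol or Dia, the latter against 38.8% of Quad-unmarked peaks.

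The lists differed in how much they added. H3K27ac covered from 13.5% (Dia and mTg) to 24.1% (Wt) of Quad-unmarked peaks, and H3K4me2 from 5.48% (mTg) to 19.6% (Wt). EDL, the other mainly glycolytic muscle, covered 18.6% by H3K27ac and 17.3% by H3K4me2, compared with 14.7% and 10.7% in Sol and 13.5% and 8.01% in Dia. All Quad ATAC peaks had the same order, at 64.9% and 61.1% in EDL, 57.3% and 51.6% in Sol and 55.8% and 46.7% in Dia. Among these 3 muscles, 1255 Quad-unmarked peaks were marked in EDL only, 562 in Sol only, 445 in Dia only and 963 in all 3. Many of them were also marked in Sed or Wt Quad, and 418, 271, 206 and 109 were not. List length moved with these shares at both ends: the longest list, with 49010 peaks, was Wt H3K27ac and the shortest, with 27527, was mTg H3K4me2. It did not do so throughout, since mTg H3K27ac with 36169 peaks covered 13.5% and EDL H3K27ac with 35750 covered 18.6%. With the 27527 most enriched peaks taken from every list, a choice made after seeing the data, 27.4% were marked in another muscle and 29.9% in Sed or Wt, and 51.2% in no list. Mark peaks that held Quad-unmarked ATAC peaks and no other were narrower and had lower levels, by their medians, than those that held other ATAC peaks in each of the 14 lists. Their median enrichment over input was lower in 10 of these lists and higher in the 4 of Wt and mTg, for instance 10.3-fold against 7.79-fold for Wt H3K27ac. The study's read counts show the fewest unique reads, among the inputs of the mark lists, for Wt and mTg. The part of input depth in these enrichments, and in the length and coverage of the Wt and mTg lists, was not tested. In EDL their median H3K27ac width was 1510.5 bp against 2316 bp, and their median log2 level was 6.11 and 6.16 in the 2 libraries against 7.93 and 8.0. A narrow mark peak is less likely to hold another ATAC peak, and levels count tags over the whole mark peak. The differences in width and level therefore follow in part from how these mark peaks were grouped.

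**Figure D3:**
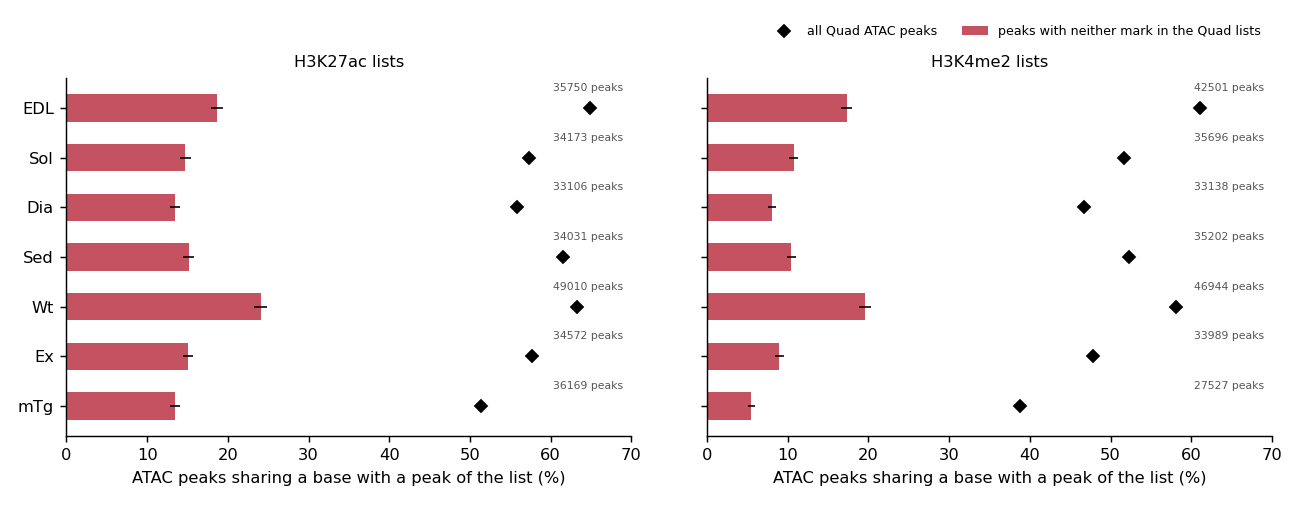
Share of ATAC peaks that share a base with a peak of each H3K27ac list (left) and H3K4me2 list (right), for the Quad-unmarked peaks (bars with Wilson 95% intervals) and for all Quad ATAC peaks (diamonds), with the number of peaks in each list in grey. The bars lie between 5.48% and 24.1% and are longest for Wt, whose lists were the longest of their mark.

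The strongest promoters among these sites carried marks in most of the other lists. The 5 with the highest signal belonged to Khsrp, an RNA-binding protein of mRNA decay (52.2), Srgap2, a GTPase-activating protein of cell shape (50.8), Ripk2, a kinase of innate immune signalling (35.4), Ddx24, an RNA helicase (35.0), and Ctnnbip1, an inhibitor of beta-catenin (32.2). They were covered in 8 to 13 of the 14 other lists. The gap to the nearest Quad mark peak was 47 to 86 bp for 4 of them and 3694 bp for Ripk2. At the Ripk2 promoter the H3K4me2 level (log2) was 8.37 and 8.49 in the Sed libraries, 8.47 and 8.35 in Wt and 8.84 and 9.04 in EDL. H3K27ac there was 7.49 and 7.86 in Sed, 6.73 and 7.03 in Wt and 7.38 and 7.45 in EDL. Levels were normalized list by list and are shown side by side without a comparison between lists.

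Marking by both H3K27ac and H3K4me2 in another muscle, without either in Sed or Wt, was seen at 136 Quad-unmarked peaks in EDL, 79 in Sol and 54 in Dia. The strongest in Sol, with the same signal of 12.8, were the promoter of 1700054K19Rik and a site nearest Slc38a4, an amino acid transporter. At the latter the H3K27ac level was 5.73 and 5.49 in the Sol libraries, and H3K4me2 was 6.03 and 5.95. This site was marked by both in EDL, by H3K27ac in Dia, and lay 25 bp from a Quad mark peak, so it lay close to the edge of the rule. In the Dia group the strongest was upstream of Galnt15, a glycosyltransferase (14.1), and was also marked by both in EDL and mTg and by H3K4me2 in Ex. Mfng, which modifies Notch receptors, had a site (10) marked by both in Dia, by H3K27ac in mTg and in no other list, 5218 bp from a Quad mark peak. Upstream of Disc1 a site (15) was marked by both in EDL alone, and upstream of Cd300lg, an endothelial receptor, a site (16) was marked by both in EDL and by H3K27ac in Sol.

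The CTCF word was more frequent in Quad-unmarked peaks than in any of the marked classes. The word, a 12-base consensus searched on both strands, was held by 808 Quad-unmarked peaks, 6.93% (6.48 to 7.40), against 2.84% of all Quad ATAC peaks and 1.41% of those with a Quad mark. Put the other way, 63.3% (60.6 to 65.9) of all 1276 peaks with the word were Quad-unmarked, where 26.0% of all peaks were. Within the set the word was concentrated in peaks without a mark in any of the 16 lists, of which 10.9% (551 peaks) held it, beside 3.98% of those marked in Sed or Wt. Of the peaks with the word 68.2% were in no list, compared with 41.4% of those without it. H3K4me2 and H3K27ac differed here: the word was in 4.30% of Quad ATAC peaks with H3K4me2 only, in 0.498% with H3K27ac only and in 0.944% with both. Inside the Quad-unmarked set, by the marks of EDL the word was in 7.39% with H3K4me2 only, 1.92% with H3K27ac only and 1.63% with both, and by those of Wt in 8.95%, 1.77% and 2.61%.

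The CTCF word sat near the middle of the accessible interval. Of 819 words found in Quad-unmarked peaks, 47.7% were centred within 20 bp of the middle, against 26.5% of 1206 AP-1 words, 29.7% of 138 MEF2 words and 22.7% of the NFY word. In ATAC peaks with a Quad mark the CTCF word was central less often, at 34.5% of 469 words. There AP-1 stood at 27.1% of 2682 words, MEF2 at 35.2% of 809 and NFY at 27.9%. Signal was alike with and without it, at medians of 4.68 and 4.62, while the median distance to a start site was 18473.5 bp with the word and 30341 bp without. Among the 22217 peaks above the median signal, 5.96% of 1878 Quad-unmarked and 1.1% of 20339 other peaks held it. A repeated stretch was present in 7.80% of the peaks with the word, and without such peaks the shares were 7.01% and 1.43%. By gap to the nearest Quad mark peak, the word was in 3.86% of the Quad-unmarked peaks within 100 bp, in 7.99% of the 4520 that were over 5000 and up to 20000 bp away and in 2.77% of those beyond 100000 bp. The word is a match of letters, and no CTCF binding was measured.

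**Figure D4:**
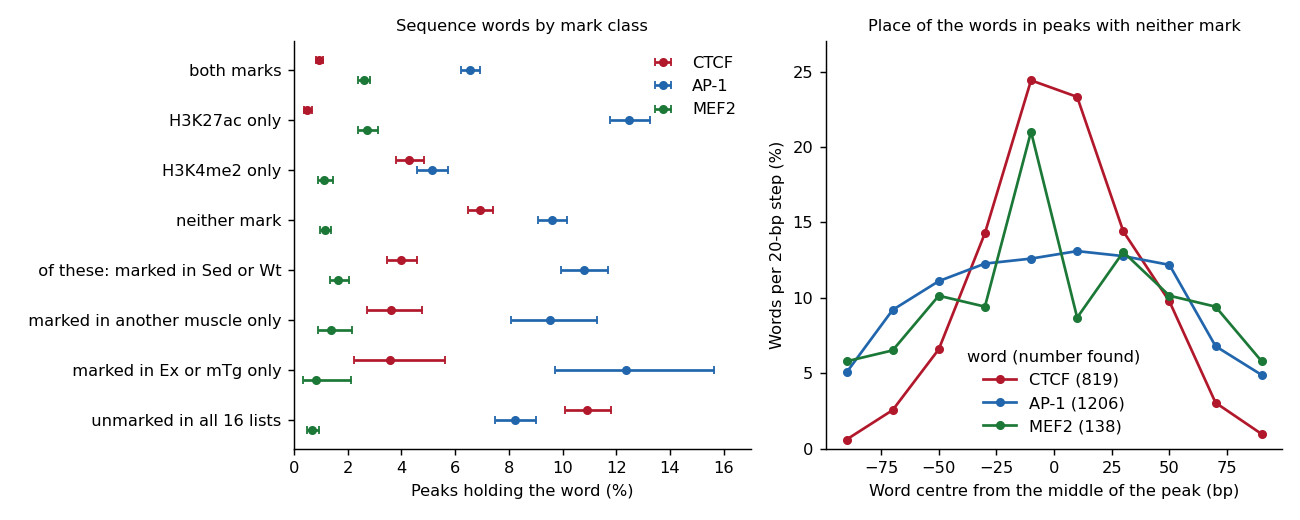
Left, share of peaks that hold the CTCF, AP-1 or MEF2 word in each mark class of Quad ATAC peaks and in 4 subsets of the peaks with neither mark, with Wilson 95% intervals; the CTCF share is highest, 10.9%, where all 16 lists are unmarked. Right, place of each word in the Quad-unmarked peaks as the share of words per 20-bp step from the middle of the interval, with the number of words in brackets; the CTCF line peaks at the middle and the AP-1 line stays between 11.1% and 13.1% from 50 bp before to 50 bp after it.

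Words typical of promoters and the MEF2 word were scarcer than over all peaks, but not than in every marked class. SP1 (GGGCGG) was in 4.77% of Quad-unmarked peaks against 21.6% of all peaks, ETS (CCGGAAG) in 1.29% against 5.54%, NRF1 (GCGCATGCG) in 0.111% against 0.851% and CREB (TGACGTCA) in 0.300% against 1.28%. Peaks with H3K27ac only, similar in layout, held the 4 words in 5.87%, 1.58%, 0.0674% and 0.606%. All 4 words hold a CpG, and CpG was scarcer in the Quad-unmarked intervals than over all peaks, as given above. MEF2, an AT-rich 10-base consensus, was in 1.17% against 2.07%, with 1.65% where Sed or Wt was marked and 0.674% where no list was. Its share was 1.13% with H3K4me2 only, 2.73% with H3K27ac only and 2.60% with both marks. AP-1 (TGACTCA or TGAGTCA) was slightly above the background, at 9.61% against 8.16%, and below the 12.5% of peaks with H3K27ac only. RUNX (TGTGGTT) stood at 4.76% against 3.62% and TEAD (GGAATG) at 13.0% against 11.5%. E-box (CAGCTG), the core of MyoD sites, was at 22.3% against 21.1%, and the nuclear receptor word (AGGTCA), which also lies inside the ERR word (TCAAGGTCA), was at 17.5% against 16%. The remaining shares were 0.343% against 0.298% for ERR, 22.8% against 24.8% for NFY (CCAAT), 1.29% against 1.2% for the REST word (TCAGCACC) and 0.531% against 0.606% for the SIX-family word (TCAGGTTTC).

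The 10 strongest Quad-unmarked peaks were outside every mark list, and most held repeated sequence. On chromosome 2 lay 4 of them together, from chr2:98662252-98662446 to chr2:98667086-98667280, which is 1194692 to 1199526 bp from the start of the nearest gene, Lrrc4c, with signals of 125.9, 128.4, 136.7 and 239.9. The others were nearest 4933422A05Rik (148.6), Ly6c2 (85.0), Chl1 (80.2), Pex2 (66.4), Brox (62.1) and Axin2 (59.9). None of the 10 shared a base with a mark peak of the 16 lists. In 9 of the 10, with Axin2 the exception, at least 1 of 6 tested stretches of 32 bases occurred more than once in the assembly. Over the whole set 1043 peaks (8.94%) had such a stretch, against 7.06% of all Quad ATAC peaks, and the share was 12.6% where no list was marked. Soft-masked repeats filled more than 50% of the interval in 3.9% against 1.69%, and a stretch also found in the mitochondrial genome occurred in 8 Quad-unmarked peaks and in 0 others. Per the study, ChIP reads were kept only where they matched once, while ATAC reads were aligned with default settings. The part of this difference in the marks of these peaks was not tested. Without all peaks that held a repeated stretch 41.5% of the set, in place of 43.2%, were in no list. The stretches lay inside the ATAC interval, so they do not measure whether ChIP reads around it matched once.

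MED1 was rarely found at these sites. Quad MED1 peaks shared a base with 17 Quad-unmarked peaks (0.146%, 0.0910 to 0.233), against 2.31% of the Quad ATAC peaks with a mark. In EDL, Sol and Dia the counts were 17, 39 and 16, at 0.146%, 0.334% and 0.137% against 0.454%, 1.92% and 2.41%. Any MED1 list covered 72 (0.617%) against 5.48%, and 36 of these 72 were in none of the 16 mark lists, of which 20 held a repeated stretch. The strongest, of which all but that near Axin2 held a repeated stretch, were nearest Pex2, a peroxisome biogenesis factor (66.4, EDL), Axin2, a negative regulator of Wnt signalling (59.9, Quad, EDL and Sol), Filip1l (59.5, EDL), Cdk8, a kinase of the Mediator complex (53.8, EDL and Sol), and Limd1 (43.9, EDL). NFAT, the calcineurin-dependent factor of slow fibers, covered 79 Quad-unmarked peaks in Sol (0.677% against 0.517%) and 4 in Quad. Each of these lists came from 1 library and has no replicate check.

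A small number of Quad-unmarked peaks lay in regions whose H3K27ac differed with exercise or Pgc1a. The study lists exercise-modified regions (EMRs, Ex against Sed) and PGC1α-modified regions (PMRs, mTg against Wt), each as hyperacetylated or hypoacetylated. EMRs held 39 (hyperacetylated) and 140 (hypoacetylated) Quad-unmarked peaks, and PMRs 181 and 75. As shares these were 0.334%, 1.2%, 1.55% and 0.643%, against 0.223%, 6.40%, 2.00% and 1.57% of the Quad ATAC peaks with a mark. The hypoacetylated EMRs stood furthest apart, with a share below that of the marked peaks, while the intervals for hyperacetylated EMRs overlapped (0.245 to 0.457 against 0.177 to 0.279). Together 416 peaks (3.57%) were in a modified region, against 9.55%. The rule left out ATAC peaks that touch an H3K27ac peak of untreated Quad. Hypoacetylated regions are those with more H3K27ac in the untreated Sed or Wt Quad. Their lower shares, and the lower share over all modified regions, therefore follow in part from the rule. Every one of the 140 and of the 75 in hypoacetylated regions was also covered by a mark peak in Sed or Wt, which follows largely from how such regions were called, on the combined peaks of the groups compared.

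The 37 hyperacetylated EMRs with a Quad-unmarked peak rose by a median of 0.63 on the log2 scale, and all 37 passed limma at an adjusted p under 0.05. These regions were picked by the authors for differing, so passing is no result about these sites: 99.7% of all 382 regions in that list passed. Their mean levels were 5.73 and 5.73 in the 2 Sed libraries and 6.20 and 6.5 in the 2 Ex libraries. Without Sed replicate 1 the count that passed was 0 in place of 37, and without Sed replicate 2 it was 18. The 135 hypoacetylated EMRs with a Quad-unmarked peak differed by a median of −0.66, beside −0.79 for those with other ATAC peaks only. All 135 passed where 99.7% of 2280 did. Their count was 52 without Ex replicate 2. All 177 hyperacetylated and all 75 hypoacetylated PMRs with a Quad-unmarked peak passed, as did 100% of both lists (1828 and 844 regions). Their medians were 0.73 and −0.54, beside 0.85 and −0.71 for regions with other ATAC peaks only. In each list the regions with a Quad-unmarked peak were also narrower and had lower Sed or Wt levels, by their medians. For hypoacetylated EMRs the widths were 1821 and 3222 bp and the Sed levels 6.23 and 7.91. The part of width and level in the smaller differences was not tested.

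Among the 37 hyperacetylated EMRs with a Quad-unmarked peak the largest differences were near Antxr2, an extracellular matrix receptor, Ces1a, a carboxylesterase, and Col8a1, a collagen. At Antxr2 (chr5:97856033-97858214) the level was 6.36 and 6.38 in Sed and 6.92 and 7.36 in Ex, a difference of 0.77 ± 0.17 (SE; limma, adjusted p = 0.000934, n = 2 each). The site there had a signal of 7.91 and lay 173737 bp from the start of Antxr2. At Ces1a the levels were 7.10 and 7.04 against 7.63 and 8.02, and the site there held an AP-1 word. The groups did not overlap in any of these regions, as in 100% of the list.

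Among the 135 hypoacetylated EMRs with such a peak the region annotated to Prkag2 (chr5:24960053-24964014) held 2 Quad-unmarked peaks with signals of 22.3 and 12.8, both intronic. Its level was 7.68 and 7.64 in Sed and 6.82 and 6.27 in Ex, a difference of −1.12 ± 0.21 (SE; limma, adjusted p = 1.36e-05, n = 2 each). Wwox, an oxidoreductase with WW domains, had a region with 9.80 and 9.55 in Sed and 8.46 and 8.69 in Ex. A Quad-unmarked site at its edge (chr8:114971464-114971658) held a CTCF and an E-box word. Ttll4, a tubulin-modifying ligase, had 8.58 and 8.85 in Sed and 7.92 and 7.33 in Ex. The Wwox and Ttll4 regions also held Quad ATAC peaks with a Quad mark, so their change cannot be assigned to the Quad-unmarked site. Of the 135 regions, 122 held no such marked peak, the Prkag2 region among them.

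In hyperacetylated PMRs, the region in BC049352 (chr9:45180384-45186088) had a level of 6.95 and 7.05 in Wt and 9.24 and 9.30 in mTg, a difference of 2.27 ± 0.12 (SE; limma, adjusted p = 3.78e-13, n = 2 each). The site inside had a signal of 4.56, held an E-box word and was marked in Sed and Wt as well as in mTg. At Gde1, a glycerophosphodiesterase, the levels were 5.14 and 5.36 in Wt and 7.03 and 7.03 in mTg, and the site (signal 3.35) held an ERR word. In hypoacetylated PMRs, Syne1, which encodes the nuclear envelope protein nesprin-1, had 8.18 and 8.41 in Wt and 7.04 and 7.27 in mTg. The Syne1 region also held an ATAC peak with a Quad mark, unlike 72 of the 75 hypoacetylated PMRs with a Quad-unmarked peak. Serpinc1, the gene of antithrombin, had 6.51 and 6.42 against 5.44 and 5.26, and a region near Mir3066 had 5.58 and 6.11 against 4.77 and 4.78. The study reports raised macrophage and vessel markers in mTg muscle and proposes that a changed cell mix could contribute to its signals. The part of cell mix in these differences was not tested.

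**Figure D5:**
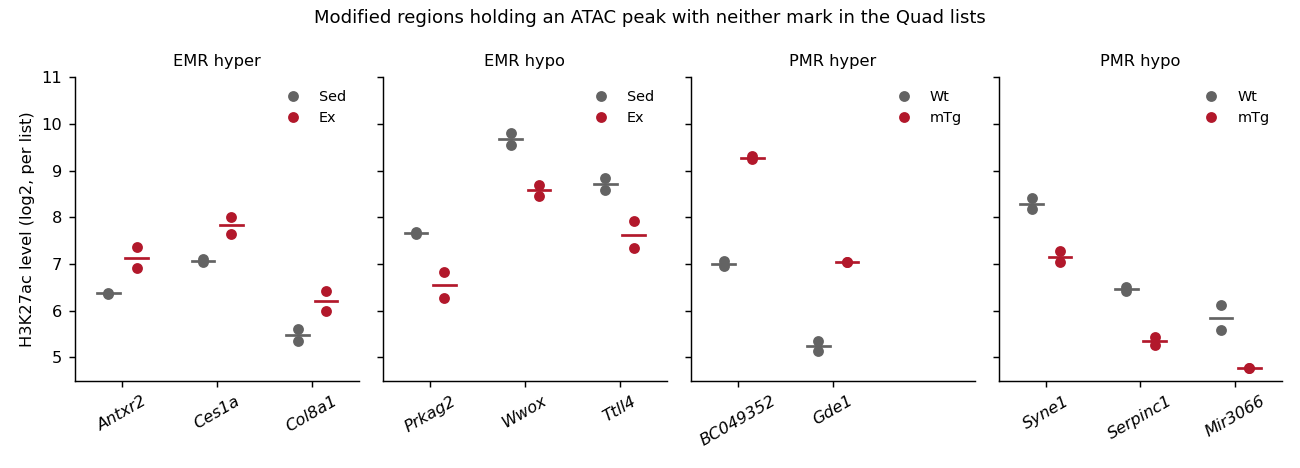
H3K27ac level (log2, normalized within each list) in each of 2 control (grey) and 2 treated (red) libraries at the named regions of each list that hold a Quad-unmarked ATAC peak; short lines are group means. In each region the points of the groups do not overlap, as in 100% of each list, and the widest separation drawn is at BC049352. The Wwox, Ttll4 and Syne1 regions also hold ATAC peaks with a Quad mark.

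By nearest gene the set was spread over 7026 genes, of which 4452 had a single Quad-unmarked peak. Genes of the contractile apparatus had few: 4 of 75 ATAC peaks nearest the fiber and sarcomere list were Quad-unmarked (5.33%), against 26.0% of all peaks. They were near Myl2, the slow myosin light chain (signal 6.71, in no list), Myh2, the IIa myosin heavy chain (5.19, marked in EDL, Sol, Wt and mTg), and Atp2a2, the slow calcium pump (4.24, marked by H3K4me2 in Sol). The share was 14.8% (18 of 122) for oxidative and fuel metabolism genes, with sites in Ppara, a fatty acid receptor (7.97, inside a hyperacetylated PMR), and Esrrb (9.37), and 15.5% (23 of 148) for muscle transcription factors, with sites near Runx1 (14.4 and 9.37) and Tbx15 (10.6, inside a hypoacetylated PMR). For neuromuscular junction genes it was 25.5% (12 of 47), with Colq, which anchors acetylcholinesterase (14.8), Utrn (10.7) and Ache, the enzyme itself (7.21).

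The gene lists for other cell types differed among themselves. Of the ATAC peaks nearest nerve and Schwann cell genes 12 of 27 were Quad-unmarked (44.4%), including sites near Pmp22 (9.56), Ncam1 (7.28) and Rbfox3 (6.71), and 9 of the 12 were in no mark list. Macrophage and blood cell genes had 7 of 12 (58.3%), including Spi1, the myeloid factor PU.1 (10.5), Adgre1 (5.76) and Aif1 (4.56), with 5 of the 7 marked in Sed or Wt. Satellite cell genes had 8 of 23 (34.8%), among them Vcam1 (8.35), Pax7 (7.66) and Cdh15 (6.71). Endothelial genes had 12 of 71 (16.9%), with Vwf (14.9), Cdh5 (13.6) and Tek (8.73), and fibroblast genes 9 of 40 (22.5%), with Fbn1 (6.45), Col1a1 (5.95) and Dcn (4.43). Imprinted loci had 12 of 41 (29.3%), including Sgce (14.2), Dlk1 (11.8) and Igf2r (8.10). The counts are small, and a nearest gene is a position and not a measured target.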

How the data were processed

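ChIP-seq of H3K27ac, H3K4me2, MED1 and NFAT and ATAC-seq of mouse skeletal muscle were analysed from the deposited peak lists. ChIP reads were aligned to mm10 with Bowtie (1.2 per the submitters' processing notes) keeping reads that matched once, and ATAC reads with Bowtie2 at default settings. HOMER was used to call peaks. The notes name mm10 alone for the control ATAC libraries behind the Quad list, and mm9 beside it for the Ex and Pgc1a ATAC samples and the MED1 and NFAT samples, whose list headers name mm10. The labels do not say which of the study's experiments the control ATAC libraries came from. The authors deposited mark levels as log2 values per library, made with DESeq2 within each list, so levels were not compared between lists. The deposited ATAC signal is the tag count of a peak scaled to 10000000 tags of the 3 pooled libraries, with 4.26% of tags in peaks, an FDR of 0.001 and a minimum of 4-fold over the local 10000 bp. The deposited ratio column is that local fold, and the deposited MED1 and NFAT score was used only to locate peaks. The authors' enrichment over input (pooled log2 fold) served for the 4-fold filter and to describe and rank mark peaks, and their columns of group fold changes and p-values were not used.

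Intervals were read as closed, 1-based and 195 bp long, and a shared base made a peak marked. Positions were taken from RefSeq on GRCm38 (45756 transcripts of 26180 genes), since the ATAC list carries no annotation, and a promoter was 1000 bp upstream to 100 bp downstream of a start. Words (15) were searched on both strands of the interval, and 6 stretches of 32 bases per interval were looked up in the assembly. The members, words and 10 gene lists were chosen with earlier results of these data known. The peaks named were the 10 highest by signal, the 5 highest promoters, the 3 largest differences per modified region list (1 of them is not reported here), up to 3 per gene list, the highest with both marks in another muscle and the 5 highest with MED1. Modified regions were tested with limma 3.58.1 (R 4.3.3) on the deposited log2 levels, list by list, two-sided, with Benjamini-Hochberg adjustment. On simulated data limma recovered 100% of planted regions and called at most 0.658% of the others. The planted shifts were many times the noise and lay in a minority of regions. The simulation therefore checked the fitting and not the power at the differences seen in the real lists. Per the study, each quadriceps sample came from 1 animal, so p-values rest on 2 samples per group. The SE and p-values also draw on the spread of all regions of a list, which the authors picked for differing. At Prkag2, Wwox and Ttll4 the SE was the same, 0.21. It is therefore not the spread between the samples at a single region. Shares carry Wilson 95% intervals (Python 3.11.15, NumPy 2.4.6, pandas 2.3.3, SciPy 1.17.1, statsmodels 0.14.6, Matplotlib 3.10.9). The 5 interval lists of another build were not used here.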

Additional observations from a re-analysis of the deposited data

How the results depend on the processing

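Of 97 alternative values, 48 stayed within the counting interval of the value reported or, for counts, within 1.5 times of it, 46 moved further, 3 lost calls, and 0 regions tested changed sign. The weakest peaks rested on few tags, and the effect of depth was not tested. List length was equalized in 1 alternative given below. With Quad mark peaks of at least 4-fold over input for the rule, the Quad-unmarked share was 30.3%, the median signal 4.75, marking in another muscle 44.6%, in Sed or Wt 46.9% and in no list 37.9%, and the CTCF word 6.35%. With no Quad mark peak within 1000 bp, these were 21.7%, 4.49, 32.6%, 35.8%, 49.5% and 7.42%, promoters were 1.25%, and hypoacetylated PMRs held 47 peaks. Among the ATAC peaks above the median signal, the 6 values were 8.45%, 8.92, 59.9%, 61.0%, 24.2% and 5.96%, promoters were 2.45%, the start site distance 25966.5 bp, Quad MED1 0.319%, and 3, 50, 44 and 17 peaks lay in the 4 modified region lists. Marking in another muscle, in Sed or Wt and in no list was 36.2%, 37.8% and 46.4% when at least 50% of the peak had to be covered, and 34.4%, 39.4% and 45.5% with other lists at 4-fold over input. The CTCF share was 1.54% with a stricter word, 5.67% in the middle 100 bp and 6.25% without soft-masked bases. Alternatives chosen after seeing the data gave 27.4%, 29.9% and 51.2% with the same number of peaks from every list, 40.02%, 42.8% and 41.5% without peaks holding a repeated stretch (25.5% Quad-unmarked, Quad MED1 0.0847%), 21.9% marked in Sed alone, 52.6% in no list without the Wt and mTg lists, and 11673 Quad-unmarked peaks with half-open intervals.

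Leaving out 1 library at a time gave 0 to 37 hyperacetylated and 52 to 130 hypoacetylated EMRs, and 175 to 176 and 72 to 75 PMRs, that passed limma, the lone library being assumed to vary like the other group. With the replicate number as a block, 37, 135, 177 and 75 passed, and a variance trend changed no count. The pairs share only a number (correlation of deviations 0.14, 0.11, -0.039 and -0.24). With the pairing crossed, 75 hypoacetylated PMRs passed.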

Other observations

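Within modified regions the AP-1 word was in 9 of 39 Quad-unmarked peaks (23.1%, 12.6 to 38.3) in hyperacetylated EMRs and in 2.86% (1.12 to 7.12), 4.42% (2.26 to 8.48) and 4% (1.37 to 11.1) in hypoacetylated EMRs, hyperacetylated PMRs and hypoacetylated PMRs. The other Quad ATAC peaks of these regions held it more often in each list, at 29.7%, 7.99%, 8.41% and 10.6%. In the same order the nuclear receptor word was in 15.4%, 15%, 25.4% and 16%, the E-box in 17.9%, 22.1%, 23.8% and 37.3% and MEF2 in 0%, 2.14%, 2.76% and 2.67%, and most of these intervals overlapped. Differences between lists were not tested. In 2 lists at once were 19 peaks, 11 of them in hypoacetylated EMRs and PMRs and 7 in hypoacetylated EMRs and hyperacetylated PMRs.

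Quad-unmarked peaks were unevenly spread over genes and chromosomes. The most near a single gene, counted after the values were seen, were 13 of 33 ATAC peaks near Zfp608, a zinc-finger gene, and 12 of 22 near Frmd4a. They made up 29.5% of the ATAC peaks of chromosome 1, 21.02% of chromosome 19 and 17.2% (14.8 to 19.8) of chromosome X. Marked by 8 or more of the 14 other lists were 555 peaks (4.76%), and 8 peaks were in all 14.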
